A study of Mus musculus with 12 samples.

Results

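The 8 genes described here store, export, take up or sense cellular iron. They were chosen by name among the 24318 genes of the deposited table, with earlier results of these data known. They are Fth1 and Ftl1 (storage), Slc40a1 and Heph (export), Tfrc and Slc11a2 (uptake), and Aco1 and Ireb2 (sensing). Each has 1 row per library, and all 8 passed the filter on low counts that left 12469 genes to test.

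The cells were immortalized fibroblasts from mouse embryos, and their polyadenylated RNA was sequenced in 12 libraries, 3 in each of 4 groups. Every group, controls included, had the genotype MafF-/-::MafG-/-::MafK-/-, so none had an intact gene for a small Maf protein. The groups were mock cells with vehicle, mock cells with diethyl maleate (DEM, an electrophile that depletes glutathione), and T-N2G cells with each of these. T-N2G is a tethered heterodimer of Nrf2 and MafG. DEM was given at 100 µM, and DEM and vehicle both for 12 h, in medium with 10% serum. The genotype label of the T-N2G cells spells the transgene T-NG2, while the sample titles and the series text write T-N2G. What mock stands for, which vehicle was used, how T-N2G was introduced and driven, and whether either population was 1 clone are not given in the sources used here. The labels do not say that the replicates were separate cultures, so p-values measure the spread between these samples, which may be technical.

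Cells hold surplus iron inside ferritin, a shell built from heavy and light chains, and release iron through ferroportin, which works with ferroxidases such as hephaestin. Iron bound to transferrin enters through the transferrin receptor and leaves the endosome through the divalent metal transporter. The iron regulatory proteins bind hairpins called iron-responsive elements: in the 5′ untranslated region of ferritin and ferroportin mRNAs they block translation, and in the 3′ untranslated region of transferrin receptor mRNA they protect the transcript from decay. Nrf2 pairs with a small Maf protein to bind antioxidant response elements, and the genes of both ferritin chains and of ferroportin are known Nrf2 targets.

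Because these hairpins divide the members into classes, those of 5 members are shown first. They were searched for in the untranslated regions of annotated mouse transcripts (GENCODE M21, GRCm38, used by gene name only) as a C, 5 stem bases, a loop of 6 bases beginning CAGTG, and 5 bases pairing with the stem, G-T pairs allowed. Matches with at least 4 of the 5 pairs were kept. Each hairpin shown is printed as a window of 30 bases, 5′ to 3′ on the transcript strand, with the loop in capitals.
Fth1-201, 5′ untranslated region: ttcctgcttcaaCAGTGCttgaacggaacc
Ftl1-201, 5′ untranslated region: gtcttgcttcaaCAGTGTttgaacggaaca
Slc40a1-201, 5′ untranslated region: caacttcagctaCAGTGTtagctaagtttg
Tfrc-201, 3′ untranslated region, hairpin 1: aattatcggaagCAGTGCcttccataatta
Tfrc-201, 3′ untranslated region, hairpin 2: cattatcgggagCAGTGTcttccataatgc
Tfrc-201, 3′ untranslated region, hairpin 3: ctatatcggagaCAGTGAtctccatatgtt
Tfrc-201, 3′ untranslated region, hairpin 4: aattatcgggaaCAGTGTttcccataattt
Slc11a2-205, 3′ untranslated region: agccatcagagcCAGTGTgtttctatggtt
In the transcripts shown, the 5′ hairpins sat close to the annotated start. The loop started at base 99 of 929 in Fth1-201, base 90 of 968 in Ftl1-201 and base 102 of 3370 in Slc40a1-201. In another transcript, Fth1-203, the same hairpin had its loop at base 670 of 1494. The 4 Tfrc hairpins began their loops 895, 1274, 1339 and 1386 bases after the end of the coding sequence. The Slc11a2 window, 44 bases after the coding end, had 4 of 5 stem pairs, and the other windows had 5 of 5.

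The hairpin was in 4 of 5 coding transcripts of Fth1, 1 of 2 of Ftl1, 1 of 4 of Slc40a1, 1 of 3 of Tfrc and 1 of 6 of Slc11a2. The counts are per gene, so transcripts with and without a hairpin were not measured apart. No such match lay in an untranslated region of Heph, Aco1 or Ireb2, the latter being the genes of the iron regulatory proteins themselves. Over all annotated genes a match with 5 pairs was in the 5′ untranslated region of 31 of 20580 (0.151%) and in the 3′ untranslated region of 129 of 20962 (0.615%), regions that differ in length between genes. With 4 or 5 pairs the counts were 205 of 20580 (0.996%) and 872 of 20962 (4.16%). The last of these is the share to set beside Slc11a2. A match describes the sequence and is not a measurement of binding, and neither translation nor protein was measured.

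**Figure D1:**
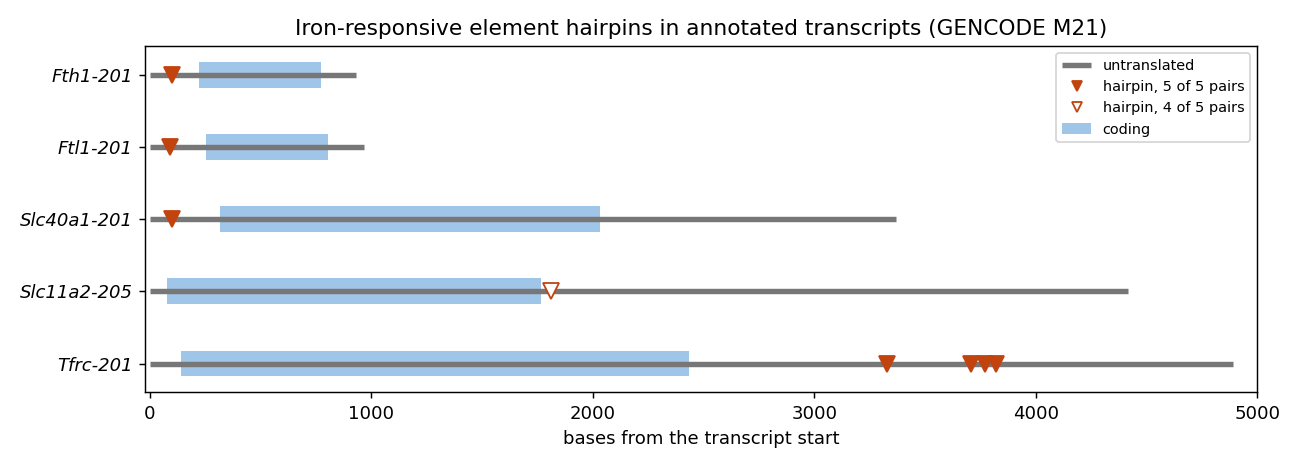
Position of iron-responsive element hairpins on 5 annotated transcripts, with bases from the transcript start on the x axis and 1 transcript per row; thin lines are untranslated, boxes are coding and triangles mark loops (open where 4 of 5 stem bases pair). The hairpins of Fth1, Ftl1 and Slc40a1 lie before the coding sequence, those of Tfrc and Slc11a2 after it.

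The libraries held 18863560 to 23095692 fragments each. Levels are given as FPKM, in which fragments are divided by the length of the transcript and the size of the library, so that genes can be compared per length. The 8 fibroblast markers listed (collagens, Vim, Fn1 and others) all passed the filter and summed to 11717 to 18844 CPM (counts scaled to library size alone) per library. Macrophage markers summed to 1.43 to 2.65 CPM, epithelial markers to 0.347 to 1.37, endothelial markers to 4.95 to 15.5 and erythroid markers to 0.246 to 0.519. Some sums moved with the group: fibroblast markers were at 14645 to 18000.5 CPM in mock cells with vehicle, 13706 to 16624 in mock cells with DEM, 14533 to 18844 in T-N2G cells with vehicle and 11717 to 14666 in T-N2G cells with DEM. Endothelial markers were at 9.35 to 15.5, 6.43 to 11.3, 10.1 to 14.5 and 4.95 to 7.78 CPM in the same order. Both ranges lay lowest, with overlap, in T-N2G cells with DEM, where the storage and export genes were highest, and their part in those results was not tested. Nfe2l2, the gene of Nrf2, was 3.49 ± 0.16 (log2, SE) above mock cells in T-N2G cells with vehicle (edgeR, adjusted p = 3.15e-07), and Mafg 8.04 ± 0.24 higher (adjusted p = 5.96e-09). Mafg stood at 0.327 to 0.382 FPKM in the mock and at 73.1 to 111.8 FPKM in the T-N2G libraries with vehicle. Fragments of the transgene and of the cells' own genes are not separated by the table. The summed level of 4 Y-linked genes, chosen after their values were seen, was 11.5 to 16.2 CPM in the mock and 20.7 to 24.9 CPM in the T-N2G libraries, so the populations differed in genes outside this pathway too. What T-N2G adds and what else differs between the populations cannot be told apart, and neither can fewer cells expressing a gene and less of its RNA per cell.

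T-N2G cells had more RNA of the storage and export genes than mock cells, and DEM raised these genes further there, while of the uptake and sensing genes Tfrc and Aco1 were called in some comparisons and Slc11a2 and Ireb2 in none. With vehicle, 4 of the 8 genes were called higher in T-N2G cells (Fth1, Ftl1, Slc40a1 and Heph), against 0.305% of all 12469 genes called higher. With DEM, 5 were called higher (the same 4 and Tfrc), against 2.61% of all genes. Heph passed the filter on low counts only through the T-N2G libraries, so its place in both counts is no separate support. The members were chosen with earlier results of these data known. The shares of all genes here and below are therefore set beside the counts as description and are no test of the set. No member was called lower in T-N2G cells in either medium, by edgeR, DESeq2 or limma, nor at an unadjusted p under 0.05 in edgeR. Over all genes 0.00802% were called lower with vehicle and 1.11% with DEM, so 0 of 8 is near that background. The median log2 fold change over the 8 genes was 0.47 with vehicle and 1.17 with DEM, and over all tested genes it was -0.0015 and -0.0050.

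DEM in mock cells raised 1 member, Aco1, where 7.76% of all genes were called higher, and lowered 1, Tfrc, where 6.18% were called lower. DEM in T-N2G cells raised 5 (Fth1, Ftl1, Slc40a1, Heph and Aco1), where 10.1% of all genes were called higher, and called 0 of 8 lower, where 7.55% of all genes were called lower. The counts of 1 in mock cells and of 0 lower in T-N2G cells are near these shares. The DEM effect itself was larger in T-N2G than in mock cells for 3 members, Fth1, Ftl1 and Slc40a1, where 0.417% of all genes were called higher, and smaller for none, where 0.016% were called lower. A call is a Benjamini-Hochberg adjusted p under 0.05 in edgeR's quasi-likelihood test over all tested genes. The 5 comparisons share groups of libraries, so their values are set side by side and not as separate evidence. The count of 4 with vehicle fell to between 1 and 3 when 1 of the 6 libraries compared was left out, and the genes concerned are named with their values.

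The library codes in the labels put replicate 3 in another number range than replicates 1 and 2. With replicates 1 and 2 alone the 5 comparisons called 0, 4, 0, 3 and 0 members higher, and with the replicate block in that subset, an alternative added after the data were seen, 4, 5, 1, 5 and 3. Over all genes the subset without the block called 5, 117, 57, 305 and 6 higher, against 38, 325, 967, 1254 and 52 with all libraries. The loss of calls was thus not particular to the members. Among the calls lost in the subset without the block were Fth1 in T-N2G cells with vehicle (adjusted p = 0.0918), Tfrc in T-N2G cells with DEM (0.212) and Tfrc under DEM in mock cells (0.125). Aco1 under DEM lost its calls there too (0.0925 in mock and 0.106 in T-N2G cells), as did the differences of DEM effects of Fth1 (0.137), Ftl1 (0.0772) and Slc40a1 (0.935). All these values kept their direction.

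**Figure D2:**
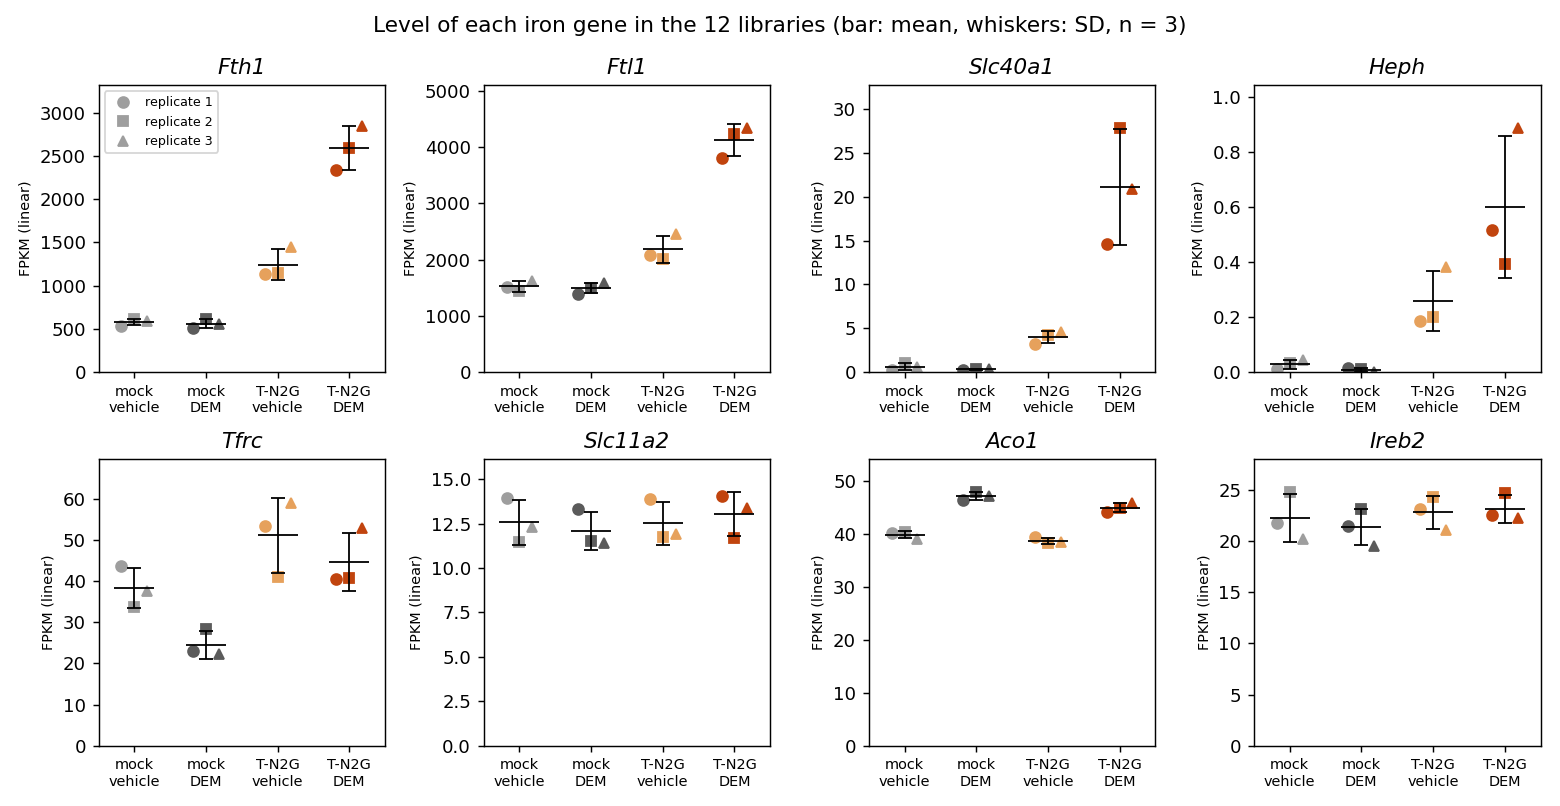
Level of the 8 genes in FPKM on a linear y axis from 0, by group on the x axis; each point is 1 library, the long bar the mean and the whiskers the SD (n = 3). Fth1, Ftl1, Slc40a1 and Heph are highest in T-N2G cells with DEM, Tfrc is lowest in mock cells with DEM, and Slc11a2 and Ireb2 lie at like levels in all 4 groups.

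Fth1 encodes the heavy chain of ferritin, which carries the ferroxidase site. In replicates 1, 2 and 3 it stood at 536, 608 and 595 FPKM in mock cells with vehicle and at 507, 616 and 560 in mock cells with DEM. T-N2G cells had 1129.7, 1145 and 1449.8 FPKM with vehicle and at 2338, 2594 and 2845 with DEM. Both T-N2G groups lay above both mock groups with no overlap, the mock groups overlapped each other, and the T-N2G groups did not. Fth1 was 2.14-fold higher in T-N2G cells with vehicle (log2 1.10 ± 0.11 SE, adjusted p = 0.000892) and 4.63-fold higher with DEM (log2 2.21 ± 0.12, adjusted p = 3.03e-07). DEM changed it by log2 -0.05 in mock cells (95% interval -0.29 to 0.20, adjusted p = 0.812) and raised it 2.09-fold in T-N2G cells (adjusted p = 0.000163). The difference of the DEM effects was 1.11 ± 0.16 on the log2 scale (adjusted p = 0.00901).

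Ftl1 encodes the light chain, which helps iron to form a mineral core. It was the most abundant of the 8 genes in all 12 libraries per length. Its levels were 1516, 1434 and 1626 FPKM in mock cells with vehicle and 1397, 1496 and 1592 in mock cells with DEM. In T-N2G cells they were 2080.0, 2005 and 2458 FPKM with vehicle and 3810.4, 4236 and 4342 with DEM. The order of the groups was that of Fth1, with the mock groups overlapping and each T-N2G group apart from all others. Ftl1 was 1.43-fold higher in T-N2G cells with vehicle (log2 0.52 ± 0.09, adjusted p = 0.0384) and 2.77-fold higher with DEM (log2 1.47 ± 0.09, adjusted p = 1.93e-06). DEM changed it by log2 -0.03 in mock cells (95% interval -0.23 to 0.17, adjusted p = 0.867) and raised it 1.89-fold in T-N2G cells (adjusted p = 0.000105), a difference of 0.95 ± 0.13 (log2, adjusted p = 0.00649). The call with vehicle was lost without mock replicate 1, 2 or 3 (adjusted p = 0.139, 0.161 and 0.105) and without T-N2G replicate 1 or 3 (0.0984 and 0.148), at log2 values of 0.43 to 0.57. It was kept with the replicate number as a block (adjusted p = 2.5e-06).

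Ferritin mRNA made up a larger part of the RNA of T-N2G cells. Fth1 and Ftl1 together took 0.161% ± 0.009 of all fragments in mock cells with vehicle, 0.158% ± 0.012 in mock cells with DEM, 0.259% ± 0.028 in T-N2G cells with vehicle and 0.508% ± 0.042 in T-N2G cells with DEM (SD, n = 3 each). By mean FPKM, Ftl1 ranked 35, 29, 14 and 6 in these groups among the 24318 genes, and Fth1 ranked 129, 125, 50 and 9. The folds of T-N2G over mock cells were larger for the heavy than for the light chain in both media.

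The ratio of Fth1 to Ftl1 FPKM was 0.354, 0.424 and 0.366 in mock cells with vehicle and 0.363, 0.411 and 0.352 with DEM. In T-N2G cells it was 0.543, 0.571 and 0.590 with vehicle and 0.614, 0.612 and 0.655 with DEM. The lowest of the 6 T-N2G ratios exceeded the highest of the 6 mock ratios. The mean difference in log2 ratio was 0.66 (0.58 with vehicle and 0.74 with DEM). This ratio was chosen after the levels were seen, so it is a description and has no test. Ferritin genes have many processed pseudogenes: RefSeq lists 8 by symbol, none of which has a row in the table, so how fragments from them were counted is uncertain for Fth1 and Ftl1. The other ferritin genes in the table, Ftmt and Fthl17, had no fragment in any library.

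**Figure D3:**
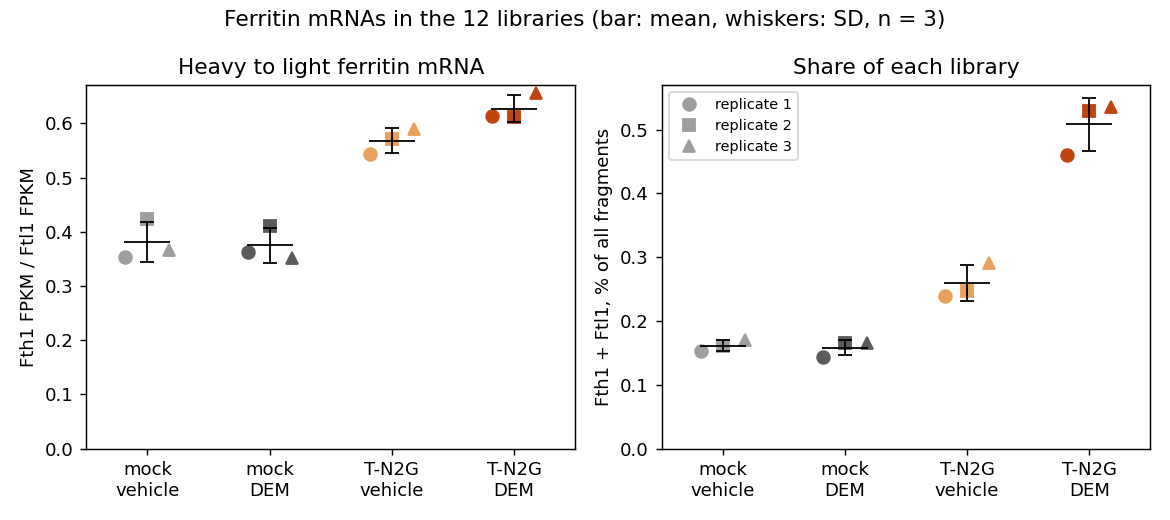
Ratio of Fth1 to Ftl1 FPKM (left) and percent of all fragments that fell on both genes (right), by group; each point is 1 library, the long bar the mean and the whiskers the SD (n = 3), with both y axes from 0. The ratio is 0.352 to 0.424 in the mock libraries and 0.543 to 0.655 in the T-N2G libraries, and the share is highest in T-N2G cells with DEM.

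Slc40a1 encodes ferroportin, the iron exporter of vertebrate cells, and changed more than the ferritin genes from a far lower level. It stood at 0.234, 0.981 and 0.618 FPKM in mock cells with vehicle and at 0.214, 0.388 and 0.322 in mock cells with DEM. The T-N2G libraries had 3.21, 4.26 and 4.58 FPKM with vehicle and at 14.6, 27.9 and 20.9 with DEM. The mock groups overlapped, and every T-N2G library was above every mock library. It was 6.51-fold higher in T-N2G cells with vehicle (log2 2.70 ± 0.37, adjusted p = 0.00741) and 67.9-fold higher with DEM (log2 6.09 ± 0.39, adjusted p = 2.16e-06).

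The depth behind these folds was 124, 65, 807 and 4111 fragments over the 3 libraries of mock with vehicle, mock with DEM, T-N2G with vehicle and T-N2G with DEM. DEM raised Slc40a1 5.27-fold in T-N2G cells (log2 2.40 ± 0.29, adjusted p = 0.000371). In mock cells the value was -0.99 ± 0.50 (log2, lower with DEM in 3 of 3 replicate pairs, adjusted p = 0.209), and with the replicate block it was -0.98 and passed (adjusted p = 0.0112). The difference of the DEM effects was 3.38 ± 0.57 (log2, adjusted p = 0.0258), and 3.36 with the replicate block (adjusted p = 2.33e-06).

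On log2(FPKM + 1) in limma the T-N2G values were smaller, at 1.65 with vehicle and 4.04 with DEM, and both kept their calls.

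By mean FPKM, Slc40a1 ranked 11365 among all genes in mock cells with vehicle and 4187 in T-N2G cells with DEM. In the latter its 21.1 ± 6.62 FPKM (SD, n = 3) overlapped the level of Ireb2 (23.2 ± 1.37). Without mock vehicle replicate 3 the T-N2G call with vehicle was lost (log2 2.70, adjusted p = 0.0610). With the replicate block and all libraries that call was kept (adjusted p = 1.77e-08). The difference of DEM effects lost its call without vehicle replicates 2 or 3 of mock cells (adjusted p = 0.137 and 0.0842), DEM replicates 1, 2 or 3 of mock cells (0.0970, 0.0607 and 0.0900), vehicle replicates 1, 2 or 3 of T-N2G cells (0.0618, 0.0537 and 0.0514) or DEM replicate 3 of T-N2G cells (0.0616), at log2 values of 2.86 to 3.56.

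Heph encodes hephaestin, a ferroxidase that works beside ferroportin. It was the least abundant member, at 0.0111, 0.0313 and 0.0419 FPKM in mock cells with vehicle and at 0.0130, 0.0123 and 0 in mock cells with DEM. T-N2G cells had 0.186, 0.201 and 0.383 FPKM with vehicle and at 0.516, 0.392 and 0.886 with DEM. No T-N2G library overlapped a mock library. The whole signal was 8 and 2 fragments over the 3 libraries of mock with vehicle and mock with DEM. In T-N2G cells it was 72 with vehicle and 157 with DEM. No mock library held more than 4 fragments, so Heph passed the filter on low counts (minimum 10) only through the T-N2G libraries. A gene kept that way lies higher there by selection, so the lack of overlap and the T-N2G calls are descriptions.

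As a ratio of fragments scaled to library size, Heph was 9.002 times higher in T-N2G cells with vehicle (95% counting interval 4.33 to 21.6) and 85.2 times higher with DEM (23.2 to 709.8). Such intervals cover counting error only. The fitted values were log2 3.11 ± 0.57 (adjusted p = 0.0468) and 6.18 ± 0.65 (adjusted p = 0.000114). DEM gave -1.87 ± 1.08 in mock cells (adjusted p = 0.271) and raised Heph 2.29-fold in T-N2G cells (adjusted p = 0.0453), and the difference, 3.07 ± 1.14, did not pass (adjusted p = 0.982).

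The smaller Heph effects rested on few fragments, and their calls depended on the fit and the libraries, for reasons that were not tested. With the replicate block both calls were kept (adjusted p = 0.000118 for T-N2G with vehicle and 0.00028 for DEM in T-N2G cells). The T-N2G call with vehicle was lost without any 1 of the 6 libraries: mock replicates 1, 2 and 3 (adjusted p = 0.167, 0.161 and 0.170) and T-N2G replicates 1, 2 and 3 (0.0836, 0.0597 and 0.179), at log2 values of 2.71 to 3.49. The DEM call in T-N2G cells was lost with DESeq2 (adjusted p = 0.0599) and without vehicle replicate 1 or 2 (0.148 and 0.129) or DEM replicate 1 or 3 (0.0780 and 0.193), the last of these at log2 0.80. The T-N2G call with DEM was kept in the 14 alternatives that gave Heph a value, but its size depended on the scale: log2 0.65 on log2(FPKM + 1) in limma with no filter, where the pseudocount exceeds every Heph level, and up to 6.55 in the count fits.

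Tfrc encodes transferrin receptor 1, the main route of iron uptake, and was the 1 member called lower with DEM. It stood at 43.6, 33.7 and 37.7 FPKM in mock cells with vehicle and at 23.0, 28.4 and 22.2 in mock cells with DEM. In T-N2G cells it stood at 53.5, 41.1 and 58.9 FPKM with vehicle and at 40.4, 40.7 and 52.9 with DEM. Mock cells with DEM lay below every other group with no overlap, and the T-N2G groups overlapped.

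DEM lowered Tfrc 1.56-fold in mock cells (log2 -0.64 ± 0.15, adjusted p = 0.0177). In T-N2G cells the value was -0.19 ± 0.15 (lower in 3 of 3 replicate pairs, adjusted p = 0.405), and the difference of these effects was 0.45 (95% interval -0.02 to 0.91), which did not pass. With DEM, Tfrc was 1.82-fold above mock cells in T-N2G cells (log2 0.87 ± 0.15, adjusted p = 0.00590). With vehicle the value was 0.42 ± 0.15 (higher in 3 of 3 pairs, adjusted p = 0.584), and it passed with the replicate block (0.41, adjusted p = 0.0401). The DEM call in mock cells was lost without vehicle replicate 1 (log2 -0.55, adjusted p = 0.0587), DEM replicate 1 (-0.60, 0.0658) or DEM replicate 3 (-0.57, 0.0700). With the replicate block and all libraries that call was kept (adjusted p = 0.000401).

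Slc11a2 encodes divalent metal transporter 1, which moves ferrous iron into the cytosol. It stood at 13.9, 11.5 and 12.3 FPKM in mock cells with vehicle and at 13.3, 11.5 and 11.4 with DEM. In T-N2G cells it stood at 13.9, 11.7 and 11.9 FPKM with vehicle and at 14.0, 11.7 and 13.4 with DEM. All 4 groups overlapped, and no comparison was called. Its T-N2G difference was log2 0.02 with vehicle (95% interval -0.21 to 0.25) and 0.15 with DEM (-0.09 to 0.38), and its DEM effect was -0.09 in mock (-0.32 to 0.15) and 0.04 in T-N2G cells (-0.19 to 0.27). These intervals leave out the smallest called value of Fth1, log2 1.06. Apart from that of DEM in mock cells, they include the called values of Aco1, log2 0.24 and 0.21, so changes of that size are not excluded.

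Aco1 encodes cytosolic aconitase, which becomes iron regulatory protein 1 when it loses its iron-sulphur cluster. It stood at 40.1, 40.3 and 39.1 FPKM in mock cells with vehicle and at 46.4, 47.9 and 47.2 with DEM. The T-N2G libraries had 39.4, 38.4 and 38.5 FPKM with vehicle and at 44.1, 45.0 and 45.8 with DEM. The replicates lay close together, and each DEM group was above both vehicle groups. DEM raised Aco1 1.18-fold in mock cells (log2 0.24 ± 0.04, adjusted p = 0.00512) and 1.16-fold in T-N2G cells (log2 0.21 ± 0.04, adjusted p = 0.00651). The difference of those effects was -0.03 (95% interval -0.16 to 0.11, not called).

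T-N2G over mock gave Aco1 values of -0.04 with vehicle (adjusted p = 0.992) and -0.07 with DEM (adjusted p = 0.553). With DEM its 3 T-N2G libraries were all below the 3 mock libraries, a difference that did not pass. Both DEM calls were kept on leaving out any 1 library.

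Ireb2 encodes iron regulatory protein 2, whose amount is known to be set by iron-dependent breakdown of the protein. It stood at 21.8, 24.8 and 20.2 FPKM in mock cells with vehicle and at 21.5, 23.1 and 19.6 with DEM. The T-N2G libraries were at 23.2, 24.3 and 21.1 FPKM with vehicle and at 22.5, 24.7 and 22.2 with DEM. Replicate 2 was the highest in every group, and the groups overlapped. DEM gave -0.06 in mock cells (95% interval -0.26 to 0.14) and 0.02 in T-N2G cells (-0.18 to 0.22). T-N2G over mock gave 0.04 with vehicle (adjusted p = 0.992) and 0.12 with DEM (higher in 3 of 3 pairs, adjusted p = 0.640), and the latter passed with the replicate block (0.12, adjusted p = 0.0472).

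**Figure D4:**
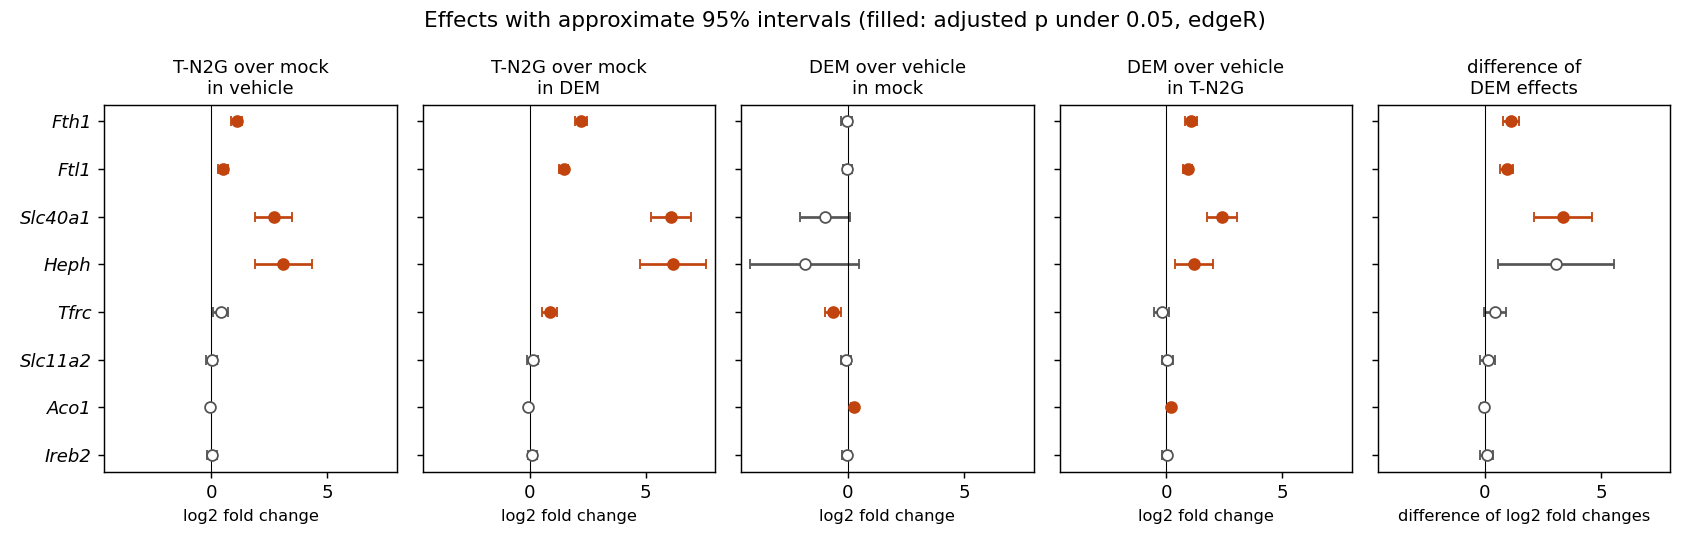
Log2 fold change of the 8 genes in the 4 comparisons and difference of the DEM effects (x axes), 1 gene per row, with approximate 95% intervals; filled points have an adjusted p under 0.05 in edgeR. Slc40a1 and Heph have the largest values and the widest intervals, and the intervals of Slc11a2 and Ireb2 include 0 in all 5 panels.

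Per length, the order in mock cells with vehicle was Ftl1, Fth1, Aco1, Tfrc, Ireb2, Slc11a2, Slc40a1 and Heph. Aco1 (39.9 ± 0.65 FPKM, SD, n = 3) and Tfrc (38.3 ± 4.94) did not differ beyond their spread there, nor did they in T-N2G cells with DEM (45.0 ± 0.83 and 44.7 ± 7.12). In mock cells with DEM, Tfrc (24.5 ± 3.37) came down to the range of Ireb2 (21.4 ± 1.78). The ferritin genes were the top pair and Heph the lowest in every group.

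By log2 CPM over the 12 libraries, Fth1 varied with Ftl1 (Pearson r = 0.983), with Slc40a1 (r = 0.982) and with Heph (r = 0.959). Tfrc varied with Aco1 in the opposite sense (r = -0.619), and r for Fth1 with Aco1 was 0.05. These are descriptions over 12 libraries that share groups and replicate numbers. Among 11106 genes compared, those most like Fth1 were Gsta4 (r = 0.993), Slc48a1 (0.990) and Gstm1 (0.989), and those most like Ftl1 were Slc48a1 (0.990), Pgd (0.989) and Nid1 (0.989). Gsta4 and Gstm1 are glutathione transferases, Slc48a1 is a haem transporter and Pgd is an enzyme of the pentose phosphate pathway.

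Gstm1 (r = 0.995), Gsta4 (0.989) and Camk1d (0.983) were nearest to Slc40a1. Foxd1 (0.983), Mdk (0.977) and Gsta4 (0.965) were nearest to Heph. Because Heph passed the filter on low counts only through the T-N2G libraries, its r values, that with Fth1 included, partly restate that selection. The nearest to Tfrc were Tuba1a (0.928), Akap12 (0.928) and Psmd2 (0.927), at lower r than for the other 4.

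Promoter windows of 250 bases before to 50 after the start (RefSeq, GRCm38.p6) were found for 5 members, 7 windows in all. No window was found for Slc40a1, Heph or Slc11a2, so their promoters were not searched. The letters TGANNNNGC, the core of the antioxidant response element, were searched on both strands and were in 1 of the 7, that of Aco1, and in 41.3% of all 32851 windows. The stricter TGACNNNGC, whose matches all hold the first motif, was in 0 of the 7 and in 12.4% of all windows. No match says only that these letters are not in these windows.

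The other iron-handling genes were taken as 5 lists of 49 genes, of which 37 were tested. None was called in T-N2G over mock cells with vehicle (edgeR: 3 higher and 1 lower at an unadjusted p under 0.05; DESeq2 and limma also called 0; the replicate block called 2 higher and 2 lower). With DEM, 4 of 37 (10.8%) were called higher and 0 lower (with the block 7 and 3), where all genes gave 2.61% and 1.11%. DEM called 2 higher and 3 lower in mock cells (5.41% and 8.11%; with the block 6 and 8), where all genes gave 7.76% and 6.18%. In T-N2G cells it called 4 higher and 1 lower (10.8% and 2.7%; with the block 8 and 8), where all genes gave 10.1% and 7.55%. The shares of all genes given here are from the main fit and are no background for the counts with the block. Of all tested genes the block called 381 higher and 404 lower for T-N2G over mock with vehicle. With DEM that comparison gave 1283 and 1162. The response to DEM gave 2603 and 2736 calls with the block in mock cells, against 2846 and 2769 for T-N2G. In the main fit the shares called for the DEM effects are near or below those of all genes and are no result about these genes as a group. None was called for the difference of DEM effects (2 higher and 0 lower at an unadjusted p under 0.05; the block called 1 higher). The median log2 fold change over these 37 genes was -0.04, -0.02, -0.08, -0.03 and 0.05 in the 5 comparisons, in the order T-N2G with vehicle, T-N2G with DEM, DEM in mock cells, DEM in T-N2G cells and the difference.

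Among the 10 uptake and reduction genes, 6 were tested. Steap3 and Steap2, metalloreductases that reduce ferric iron, and Steap1, of the same family, were called higher for T-N2G over mock with DEM, by log2 0.66 ± 0.10 (adjusted p = 0.00159), 0.54 ± 0.09 (0.00352) and 0.80 ± 0.19 (0.0357). Steap3 stood at 5.57, 5.63 and 5.02 FPKM in mock cells and at 8.53, 8.67 and 8.40 in T-N2G cells with DEM, with no overlap. DEM raised Mcoln1, a lysosomal channel that passes iron, by log2 0.36 ± 0.08 in mock cells (adjusted p = 0.0104) and 0.49 ± 0.08 in T-N2G cells (0.00148). It lowered Slc39a8, a metal importer, in mock cells (-0.65 ± 0.19, adjusted p = 0.0451). Steap1 and Slc39a8 are named after their values were seen, and their calls were lost on leaving out 5 and 6 of 6 libraries (adjusted p up to 0.156 and 0.148). With the replicate block and all libraries both were kept (adjusted p = 0.000100 and 0.000220).

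Of the 8 export and systemic control genes 1 was tested, Neo1, a receptor of the hemojuvelin pathway. It was higher in T-N2G cells with DEM (log2 0.22 ± 0.05, adjusted p = 0.0349) and rose with DEM in T-N2G cells (0.19 ± 0.05, adjusted p = 0.0238), both calls being lost on leaving out 5 of 6 libraries (adjusted p up to 0.158 and 0.105). With the replicate block and all libraries both were kept (adjusted p = 0.00136 and 0.00153). The ferroxidase genes Cp and Hephl1 were under the filter, with 10 to 20 fragments per group for Cp and none for Hephl1. No gene of ferritin loading, turnover and iron sensing was called in any comparison (4 of 5 tested; DEM gave 1 higher and 1 lower at an unadjusted p under 0.05 in both cell types). Ncoa4, which delivers ferritin to lysosomes and is named after its values were seen, was at 20.2 to 23.5 FPKM in the 4 group means.

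All 22 genes of mitochondrial iron import and iron-sulphur cluster assembly were tested. In T-N2G cells DEM raised Nfs1, the cysteine desulfurase that supplies sulphur, by 0.30 ± 0.09 (adjusted p = 0.0372), and lowered Fam96a, of the cytosolic assembly machinery, by log2 -0.24 ± 0.07 (adjusted p = 0.0412). Both calls were lost on leaving out 5 of 6 libraries (adjusted p up to 0.125 and 0.136). With the replicate block and all libraries both were kept (adjusted p = 0.000905 and 0.00405).

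Among the other mRNAs listed as carrying an iron-responsive element, Cdc42bpa, a kinase, rose with DEM in mock cells (0.34 ± 0.07, adjusted p = 0.00731) and in T-N2G cells (0.37 ± 0.07, adjusted p = 0.00347). Its DEM effect in mock cells was thus of the sign opposite to that of Tfrc. Cdc42bpa was listed by name, and whether its mouse mRNA holds the hairpin was not checked here. Both Cdc42bpa calls were kept on leaving out any 1 library.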

How the data were processed

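Per the file headers, the deposited table holds for each gene and library an estimated count of raw fragments and an FPKM value, both made by the authors. The submitters' processing notes name bcl2fastq 2.16.0.10, TopHat2 2.0.8b, Cuffdiff 2.1.1 and build mm9, while roles, strand setting and annotation are not given in the sources used here. RNA libraries were made with a strand-specific kit, per the labels' protocols. Library totals were 18863560 to 23095692 fragments, and no member's value had the status FAIL.

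Rounded counts were fitted with edgeR 4.0.16 under R 4.3.3 (filterByExpr, minimum count 10 and total 15; TMM factors 0.980 to 1.028; quasi-likelihood fit of all 12 libraries with 1 coefficient per group; common coefficient of variation 0.110). Calls are Benjamini-Hochberg adjusted p under 0.05 over 12469 genes. SEs are the log2 fold change over the root of its F statistic and so approximate. Likeness between genes is Pearson's r of log2 CPM (prior count 2) over genes with at least 2 CPM in the highest group. Scripts were tested on simulated data.

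Replicate numbers come from the sample titles. Deviations from group means correlated at r = 0.361 to 0.631 in 18 pairs of libraries with the same number. In 36 others r was -0.422 to -0.00363, so the numbers pair the samples. The main fit leaves the number out, as do the intervals and the fits that leave out 1 library. Values from a fit with the number as a block stand beside results whose call they change. They also stand beside some calls lost on leaving out 1 library, which was not combined with the block.

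Alternatives were DESeq2 1.42.0, upper quartile factors, no filter, the replicate block, the compared groups only, replicates 1 and 2 alone (the library codes of replicate 3 are of another number range), limma 3.58.1 on log2(FPKM + 1) or log2(FPKM + 0.1) of genes with mean FPKM of at least 1, or with no such filter, and leaving out each library. Replicates 1 and 2 alone with the block was added after the data were seen. All 8 members are named in every comparison, and of each other list up to 3 called genes with the smallest adjusted p, apart from those said to be named after their values were seen and from some that are counted but not reported here. The members and lists were chosen with earlier results of these data known. Promoter windows and transcripts are of GRCm38, another build than the files', so no coordinate is given.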

Additional observations from a re-analysis of the deposited data

Results flagged for a closer look

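For 3 genes the response to DEM differed between the cell types by a test of the difference itself (edgeR, interaction of T-N2G and DEM). The DEM effect in T-N2G cells minus that in mock cells was 1.11 for Fth1, 0.95 for Ftl1 and 3.38 for Slc40a1, on the log2 scale. For all 3, DEM raised the gene in T-N2G cells in 3 of 3 replicate pairs. In mock cells Fth1 and Ftl1 were lower with DEM in 2 of 3 pairs and Slc40a1 in 3 of 3. The adjusted p was 0.00901, 0.00649 and 0.0258, and that of Slc40a1 was over 0.05 on leaving out each of 9 of the 12 libraries in turn, as given with its values.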

How the results depend on the processing

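Over the 8 genes and 5 comparisons, 40 results, the alternatives gave 669 values: 612 kept the call, 53 lost it, 4 gained it and 0 reversed. The 4 genes called higher in T-N2G cells with vehicle became 1 in a fit of only those groups, 2 in each limma fit, 0 with replicates 1 and 2 alone, and 1 to 3 on leaving out 1 library. With replicates 1 and 2 alone, DEM in mock cells called 0 higher and 0 lower (from 1 and 1), DEM in T-N2G cells 3 higher (from 5), and the difference of DEM effects 0 higher (from 3). With the replicate block the count lowered by DEM in mock cells was 2, with all replicates or with replicates 1 and 2. Without the block it was 0 to 1 on leaving out 1 library. The block restored the other counts in replicates 1 and 2 (4, 1, 5 and 3). Beyond the calls named with the genes, it changed none.

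Over all genes, T-N2G over mock called 38 higher and 1 lower with vehicle (block 381 and 404; DESeq2 82 and 26; replicates 1 and 2 alone 5 higher) and 325 and 138 with DEM (1283 and 1162; 444 and 258; 117 and 22). DEM called 967 and 770 in mock (block 2603 and 2736; replicates 1 and 2 alone 57 and 67) and 1254 and 941 in T-N2G cells (2846 and 2769; 305 and 174), and the difference 52 and 2 (227 and 122; DESeq2 83 and 15; replicates 1 and 2 alone 6 and 0). Heph, with a mean FPKM under 1, had no value in the filtered limma fits, and a fit of only the groups compared does not exist for the difference. Depth limits Heph, with 2 to 157 fragments per group.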
